A study of Homo sapiens and Mus musculus with 20 samples.

Results

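The heat shock chaperones described here are a family of protein-folding genes that were chosen by symbol, namely HSPA1A, HSPA1B, HSPA8, HSP90AA1, HSP90AB1, HSPH1, HSPD1, HSPE1, DNAJB1 and HSPB1. Of these 10 genes, 8 were measured in each of 12 libraries of IMR90 cells, out of 16683, 16417 and 12013 genes listed in the 3 experiments, while HSPA1A and HSPA1B were not analysed here. The study made bulk RNA-seq profiles from IMR90, a human fetal lung fibroblast line of wild-type (WT) genotype, and from mouse muscle, with 20 libraries in all. The IMR90 groups were A485, a catalytic inhibitor of the acetyltransferase p300, with Control2; MS-275, which blocks the class I histone deacetylases, with Control3; and pyruvate, the substrate that lactate dehydrogenase turns into lactate, with Control6. Each group had 2 libraries, and the labels gave no treatment to the control groups. The study describes the cells that received pyruvate as senescent, and asked with all 3 treatments how a change in histone lactylation affects gene expression in ageing fibroblasts. The labels do not say whether replicates were separate cultures, so each p-value measures only the spread between libraries, which may be technical.

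Chaperones bind unfolded or partly folded proteins and keep them from clumping while they fold. HSP70 proteins bind short exposed stretches of a client, J-domain proteins deliver the client and trigger the HSP70 ATPase, nucleotide exchange factors reset the cycle, and HSP90 acts later on clients such as kinases and steroid receptors. HSPD1 and HSPE1 form the folding chamber of the mitochondrial matrix, and small heat shock proteins such as HSPB1 hold unfolded proteins without using ATP. Under protein stress the transcription factor HSF1 binds heat shock elements in the promoters of many of these genes, which consist of alternating units of GAA and TTC.

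Depth, summed over the genes listed in each experiment, ranged from 24179065 to 46971227 reads a library. All 12 fibroblast markers on a list of 12 (COL1A1, VIM, PDGFRB and others) exceeded a normalized read count of 100 in every library, and no epithelial, immune or muscle marker did so throughout any experiment. Of the endothelial markers TEK did so in all 3 experiments. Values below are normalized read counts, that is reads per gene divided by the size factor of the library, and means carry the SD of the 2 libraries (n = 2). Calls required both a Benjamini-Hochberg adjusted p under 0.05 from limma, adjusted over all genes tested, and an absolute log2 fold change above 1. Groups said not to overlap are described only, since 2 libraries against 2 can separate by chance. The share of all genes whose groups did not overlap was not counted. Such profiles cannot tell fewer cells of a type from less RNA per cell.

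To compare the genes with each other, the normalized read count was divided by the length of annotated exon in kilobases, joined over all transcripts of a gene. The order of genes depends on this choice of length. HSPA8 has 4849 bases of exon but a longest transcript of 2306, and HSP90AB1 has 2980 and 2674. On this per-kilobase scale HSP90AB1, the constitutive cytosolic HSP90, and HSPA8, the constitutive cytosolic HSP70, held the highest levels in Control2, at 18346 ± 2913 and 17224 ± 1774, and their libraries overlapped. HSPB1 followed at 12894 ± 1611 and HSP90AA1, the stress-inducible cytosolic HSP90, at 7650 ± 1002. HSPD1 lay at 2042 ± 431, DNAJB1 at 862 ± 85.6, HSPH1 at 714 ± 3.54 and HSPE1 at 340 ± 41.7, and below HSPA8 no neighbours in this order overlapped. In Control3 HSPA8, HSP90AB1 and HSPB1 again led and overlapped in turn, HSP90AA1 and HSPD1 came next, and DNAJB1, HSPH1 and HSPE1 overlapped. The order in Control6 was different. HSP90AB1 led there with 14140 ± 23.3 per kilobase, but HSP90AA1 held 192 ± 10.6, next to HSPD1 at 191 ± 2.83, and HSPH1 was lowest at 32.8 ± 0.354.

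**Figure D1:**
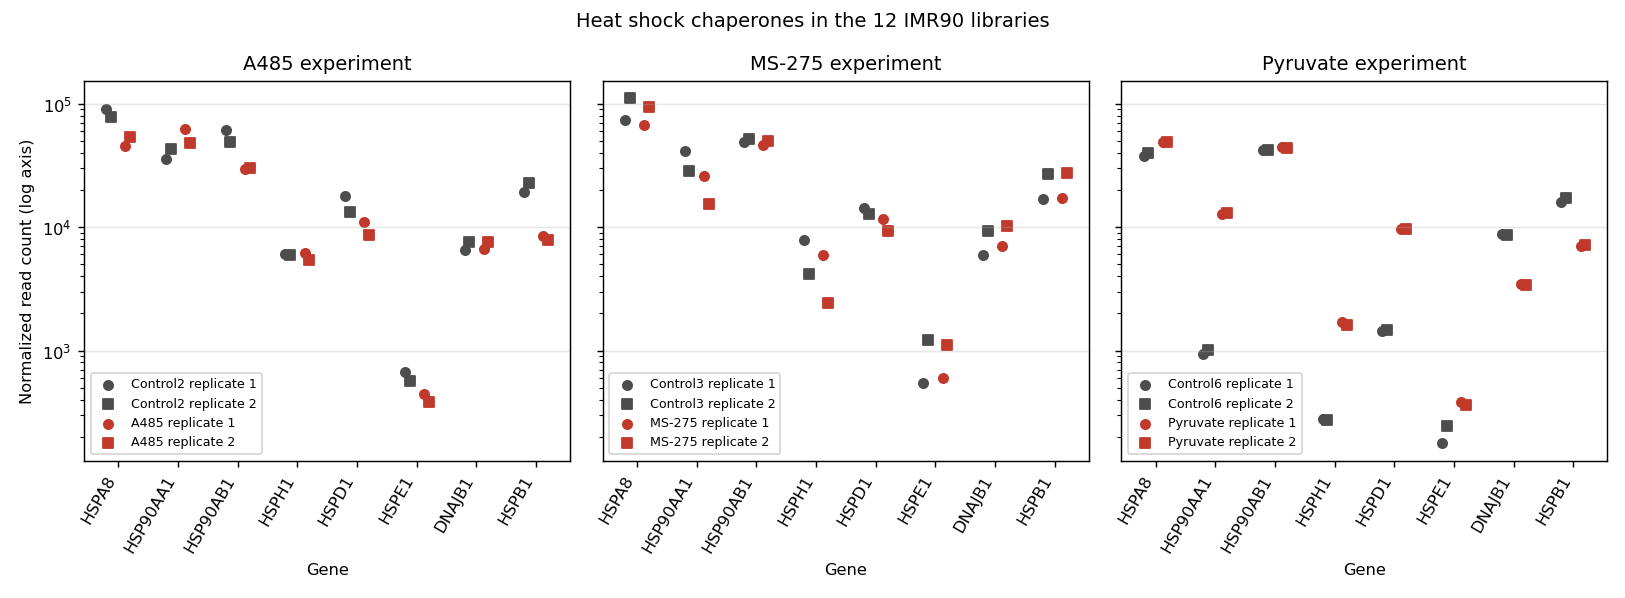
Normalized read count (log axis) of the 8 measured chaperones in each IMR90 library, with control libraries in grey and treated libraries in red, circles for replicate 1 and squares for replicate 2. HSP90AA1, HSPH1 and HSPD1 lie far apart between Control6 and Pyruvate, HSPB1 lies lower in A485 than in Control2, and in the MS-275 experiment the replicate numbers stand apart within both groups.

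Heat shock element letters were looked up in the promoter windows that RefSeq gives for all 10 genes (build GRCh38.p14, 250 bases before to 50 bases after each listed start). The pair GAANNTTC, which reads the same on both strands, occurred in the windows of 8 of the 10 genes, HSPH1 and HSPE1 being the exceptions, and in 8.21% of all 27305 genes with such windows. A run of 3 alternating units of GAA and TTC, each 2 bases apart and searched on both strands, occurred in 4 of the 10 genes and in 0.608% of all genes. Every such run also holds the pair. A gene was counted if any of its windows held the match. Counted by window, the pair occurred in 9 of the 16 windows of these genes and the run in 4. Of all 35116 windows, 6.77% held the pair and 0.49% the run. HSPE1 counts as lacking both through where its window begins, at 197500129 on chromosome 2. The neighbouring HSPD1 window, on the opposite strand, ends at 197500090 and holds its run beside that end. The run thus lies between the start of that HSPD1 window and the HSPE1 start of the gene annotation, at 197500140. A further HSPD1 window, at 197500225 to 197500524, lies beyond both and holds no match. These matches describe letters in the windows and do not show a bound site. The windows below all hold a match and belong to HSP90AA1, HSP90AB1, HSPA8, HSPD1, DNAJB1 and HSPB1. Those of HSPA1A and HSPA1B, which hold the pair, are not printed. Further windows of HSP90AA1, HSP90AB1, HSPD1 and DNAJB1 are not printed either. Among these, the DNAJB1 window at 14517888 to 14518187 holds a pair and the others hold no match. In capitals are the letters of the run of 3 units or, for DNAJB1 and HSPB1, which lack it, those of the pair.
HSP90AA1, chr14:102086995-102087294, minus strand, run from 88 bases before the start: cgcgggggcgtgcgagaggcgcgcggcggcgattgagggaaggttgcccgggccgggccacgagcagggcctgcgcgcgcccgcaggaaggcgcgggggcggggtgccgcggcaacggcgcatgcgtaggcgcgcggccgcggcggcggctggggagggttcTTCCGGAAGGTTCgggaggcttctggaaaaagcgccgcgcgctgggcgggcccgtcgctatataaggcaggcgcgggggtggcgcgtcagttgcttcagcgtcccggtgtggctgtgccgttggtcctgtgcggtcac
HSP90AB1, chr6:44247693-44247992, plus strand, the most downstream of 3 listed starts, runs from 165 and 112 bases before it: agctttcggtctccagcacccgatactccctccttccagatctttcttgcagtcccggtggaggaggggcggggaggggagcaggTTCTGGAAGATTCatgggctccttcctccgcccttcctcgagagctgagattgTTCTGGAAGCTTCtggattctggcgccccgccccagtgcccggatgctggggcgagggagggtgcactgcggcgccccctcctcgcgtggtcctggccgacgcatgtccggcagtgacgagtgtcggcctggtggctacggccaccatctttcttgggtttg
HSPA8, chr11:123062087-123062386, minus strand, runs from 230 and 55 bases before the start: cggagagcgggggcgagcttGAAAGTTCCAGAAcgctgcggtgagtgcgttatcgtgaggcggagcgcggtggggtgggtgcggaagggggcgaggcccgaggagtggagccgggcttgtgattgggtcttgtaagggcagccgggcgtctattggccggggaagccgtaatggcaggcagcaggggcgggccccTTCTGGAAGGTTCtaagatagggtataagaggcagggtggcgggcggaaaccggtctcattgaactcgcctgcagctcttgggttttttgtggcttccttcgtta
HSPD1, chr2:197499791-197500090, minus strand, overlapping runs from 245 and 240 bases before the start: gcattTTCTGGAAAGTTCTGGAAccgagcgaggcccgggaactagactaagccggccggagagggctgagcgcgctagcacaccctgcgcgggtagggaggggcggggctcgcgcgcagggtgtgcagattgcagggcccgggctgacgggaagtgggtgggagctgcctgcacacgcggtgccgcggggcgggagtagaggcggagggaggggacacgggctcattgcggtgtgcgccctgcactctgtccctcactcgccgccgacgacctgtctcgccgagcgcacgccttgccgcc
DNAJB1, chr19:14518348-14518647, minus strand, pairs from 77 and 47 bases before the start: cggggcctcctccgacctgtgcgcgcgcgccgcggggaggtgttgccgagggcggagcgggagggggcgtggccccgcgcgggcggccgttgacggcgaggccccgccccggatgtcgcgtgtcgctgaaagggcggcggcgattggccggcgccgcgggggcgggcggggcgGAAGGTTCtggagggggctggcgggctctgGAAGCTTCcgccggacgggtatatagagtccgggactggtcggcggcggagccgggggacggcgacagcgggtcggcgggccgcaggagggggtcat
HSPB1, chr7:76302423-76302722, plus strand, pair from 182 bases before the start: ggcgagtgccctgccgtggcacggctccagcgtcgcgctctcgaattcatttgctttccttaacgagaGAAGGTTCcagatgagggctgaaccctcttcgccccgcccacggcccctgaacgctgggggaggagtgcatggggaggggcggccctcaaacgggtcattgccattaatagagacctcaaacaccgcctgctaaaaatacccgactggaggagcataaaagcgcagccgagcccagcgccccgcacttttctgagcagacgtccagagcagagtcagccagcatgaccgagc

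A485 was compared with Control2 to ask which genes change when p300 is inhibited. HSPB1, the small heat shock protein HSP27, was the single chaperone called, and it fell. It measured 19078 and 22778 in the control libraries and 8459 and 7895 in the A485 libraries. Both A485 libraries lay below both controls, with means of 20928 ± 2616 and 8177 ± 399, a log2 fold change of -1.35 (SE 0.18, limma adjusted p 0.00943) and a fold of 2.55. The gene lies on chromosome 7 (hg38, 76302673 to 76304295, plus strand). Of the 8 chaperones 0 were called higher and 1 lower, against 3.31% called higher and 7.06% called lower among all 16084 genes tested. The median log2 fold change of the 8 was -0.62, and that of all genes was 0.009. With libraries scaled to equal totals the median of the 8 was -0.23, and with quantile normalization it was 0.0075.

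HSPA8 and HSP90AB1, the most abundant constitutive members, both measured lower in the A485 libraries without being called. HSP90AB1 (chromosome 6, 44246166 to 44253888, plus strand) measured 60806 and 48532 in Control2 and 29580 and 29881 in A485, a log2 fold change of -0.87 (SE 0.22, limma adjusted p 0.0515). HSPA8 (chromosome 11, 123057489 to 123063230, minus strand) measured 89607 and 77438 in Control2 and 44893 and 53390 in A485, with -0.77 (SE 0.24, limma adjusted p 0.0862). The groups did not overlap for either gene. On the recovered reads DESeq2 gave adjusted p of 0.00104 for HSP90AB1 and 0.00532 for HSPA8, while the fold changes stayed inside the minimum, and edgeR gave 0.0548 and 0.0851. With equal totals HSP90AB1 stood at -0.48 and HSPA8 at -0.37, and with quantile normalization at -0.12 and 0.13.

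The mitochondrial pair showed values in the same direction. HSPD1, the chamber subunit (chromosome 2, 197486584 to 197516737, minus strand), measured 17908 and 13263 in Control2 and 10964 and 8663 in A485, with a log2 fold change of -0.66 (SE 0.23, limma adjusted p 0.11). HSPE1, its lid, lies on the opposite strand within the annotated span of HSPD1 (197500140 to 197503449). It measured 672 and 565 in Control2 and 441 and 386 in A485, with -0.58 (SE 0.24, limma adjusted p 0.164). Neither was called, and in both genes the groups did not overlap. With equal totals HSPD1 stood at -0.27 and HSPE1 at -0.19, and with quantile normalization at -0.24 and -0.51. Other annotated genes share 17.9% of the exon bases of HSPE1, so its reads may be split in counting.

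HSP90AA1 lay on the other side of 0. It measured 35384 and 42605 in Control2 and 62515 and 47836 in A485, a log2 fold change of 0.49 (SE 0.24, limma adjusted p 0.227), and was not called although its groups did not overlap. The gene is on chromosome 14 (102080742 to 102139699, minus strand). Its listed processed copy HSP90AA2P, with which it may share reads, measured 187 and 253 in Control2 and 430 and 384 in A485. HSPH1, an HSP110 exchange factor (chromosome 13, 31134973 to 31162388, minus strand), measured 6019 and 5977 in Control2 and 6149 and 5409 in A485. DNAJB1, the HSP40 partner of HSP70 (chromosome 19, 14514769 to 14560391, minus strand), measured 6565 and 7558 in Control2 and 6585 and 7526 in A485. For both of these the groups overlapped, and the 95% confidence intervals of the log2 fold change were -0.45 to 0.34 and -0.42 to 0.42.

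The A485 values depended on the scaling and on single libraries. When libraries were scaled to the same total, the median of all genes rose to 0.40 on the log2 scale, and HSPB1 moved to -0.96 (limma adjusted p 0.0133) and HSP90AA1 to 0.89 (adjusted p 0.036), and the share of calls that were higher among all genes went from 31.9% to 65.1%. With quantile normalization the median was 0.12 and that share 42.6%, HSPB1 was at -0.94 (adjusted p 0.0226) and HSP90AA1 was called higher at 1.40 (adjusted p 0.0269). Relative to the median of all genes, HSPB1 stood at -1.36 as deposited, at -1.36 with equal totals and at -1.05 with quantile normalization. The HSPB1 call was also lost without A485 replicate 1 (-1.40, limma adjusted p 0.0972), without A485 replicate 2 (-1.30, adjusted p 0.0935) and with eBayes without a trend (-1.35, adjusted p 0.0537). The 12 fibroblast markers moved with the groups too, from 4.45% and 4.98% of all normalized read counts in Control2 to 1.74% and 1.95% in A485. The 3 listed epithelial markers summed to 271 and 171 in Control2 and 264 and 239 in A485, of which EPCAM went from 64.2 and 47.7 to 208.2 and 177.2 and KRT19 from 104.9 and 40.4 to 1.7 and 7.1. The 3 listed endothelial markers summed to 508 and 1289 in Control2 and 189 and 127 in A485, with VWF at 0 and TEK at 188.8 and 118.5 in the A485 libraries. The part of these shifts in the chaperone values was not tested.

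Other chaperone genes were grouped in 9 lists, to be read against the 3.31% and 7.06% of all genes called higher and lower after A485. With lists this short, 1 call is already near or above that share. After A485, 1 of 8 tested HSP70 relatives was called higher, HSPA4L, an HSP110 family member, which measured 324 and 469 in Control2 and 1043 and 1235 in A485 (log2 fold change 1.54, limma adjusted p 0.0196). Among 18 J-domain co-chaperones, 2 were called higher and 0 lower, led by DNAJA4, which went from 30 and 10 to 138 and 112 (2.78, adjusted p 0.0418). BAG2, an exchange factor that inhibits the ubiquitin ligase CHIP, fell from 2871 and 4053 to 1252 and 1107 (-1.53, adjusted p 0.012), as the single called gene of 10 in its list. HSPB6, another small heat shock protein, fell from 1788 and 4571 to 330 and 287 (-3.21, adjusted p 0.0101), the single call among 5 tested. So did SDF2L1 of the endoplasmic reticulum, from 590 and 712 to 266 and 304 (-1.19, adjusted p 0.0339), while DNAJB9, a J-domain protein of the same compartment, rose from 1392 and 1196 to 3059 and 2294 (1.04, adjusted p 0.0314). These were the 2 calls among 11 such genes.

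Of 14 HSP90 co-chaperones, 1 was called after A485, CDC37L1, with 683 and 776 in Control2 and 1645 and 1291 in A485 (log2 fold change 1.0, limma adjusted p 0.0352). No gene was called among 13 of the cytosolic chaperonin and prefoldin or among 11 mitochondrial chaperones and proteases. The smallest p in these lists were those of CCT4, a chaperonin subunit, at -0.67 (adjusted p 0.0718), and of HSPA9, the mitochondrial HSP70, at -0.75 (adjusted p 0.037), which passed the p threshold but not the fold minimum. Among 4 tested genes of the heat shock factor list 0 were called. HSF1 measured 2911 and 3115 in Control2 and 2321 and 2452 in A485 (-0.34, adjusted p 0.217), and HSF2 826 and 729 against 1383 and 911 (0.53, adjusted p 0.226). The 7 calls named from the lists were all lost without A485 replicate 1 (limma adjusted p 0.0992 to 0.238), without A485 replicate 2 (0.0931 to 0.186) and with eBayes without a trend (0.0555 to 0.102), and those of BAG2 and HSPB6 alone held without either Control2 library.

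**Figure D2:**
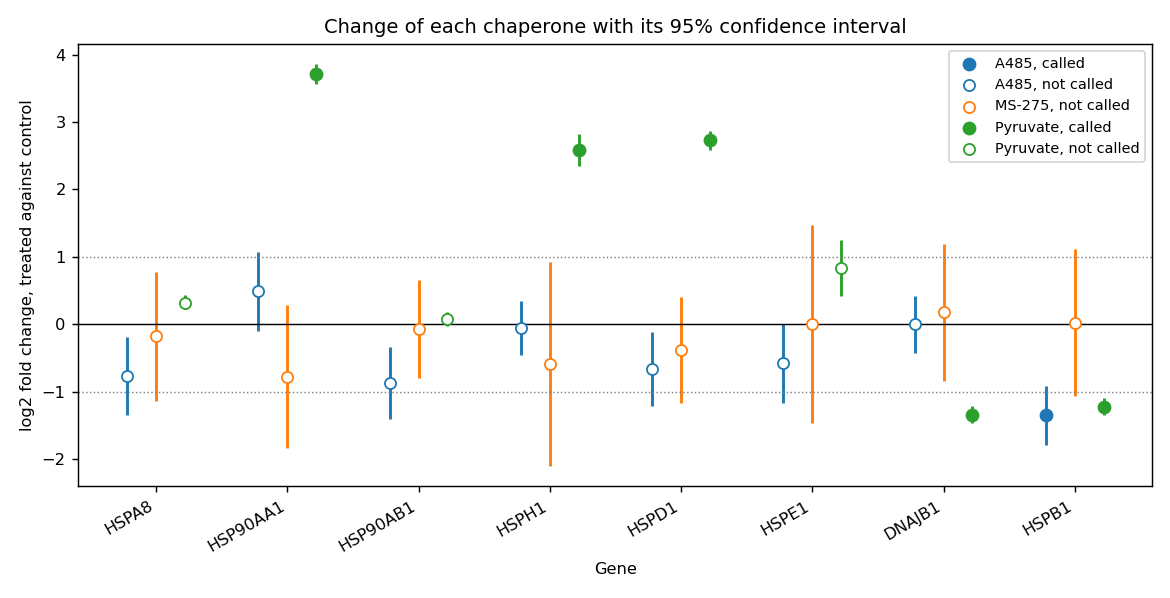
log2 fold change of each chaperone against its control in the 3 IMR90 experiments, with vertical lines for the 95% confidence interval from limma, filled points for called genes and dotted lines at the fold minimum. HSP90AA1 lies at 3.71 after pyruvate, HSPB1 at -1.35 after A485 and -1.22 after pyruvate, and every MS-275 interval spans 0.

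MS-275 was compared with Control3 to ask which genes change when class I deacetylases are inhibited. Of the 8 chaperones 0 were called higher and 0 lower by limma, and the same held for all 15883 genes tested (0% in each direction), while 1730 genes, or 10.9%, had an unadjusted p under 0.05. On recovered reads edgeR also called 0 genes, and DESeq2 called 348 higher and 227 lower, with 0 chaperones among them. No chaperone was among the 1730 genes, the smallest unadjusted limma p of the 8 being 0.116. The median log2 fold change of the 8 was -0.13 and that of all genes was -0.008. Replicate numbers stood apart within both groups, so the values are given within each number, as descriptions without a test.

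HSP90AA1 measured 41488 in Control3 and 25845 in MS-275 of number 1, and 28373 and 15430 of number 2. Within the numbers it differed by -0.68 and -0.88 on the log2 scale, and its groups did not overlap (log2 fold change -0.78, SE 0.41, limma adjusted p 0.616). HSP90AA2P measured 306 and 169 in Control3 and 183 and 73.7 in MS-275. HSPH1 measured 7892 and 5950 within number 1 and 4199 and 2444 within number 2, differences of -0.41 and -0.78, and its groups overlapped. HSPD1 measured 14207 and 11636 within number 1 and 12789 and 9226 within number 2, differences of -0.29 and -0.47, and its groups did not overlap. These 3 members were lower after MS-275 within both numbers, by less than 1 on the log2 scale.

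The other members differed little within the numbers. HSPA8 measured 74101 and 67561 within number 1 and 110282 and 93826 within number 2. HSP90AB1 measured 48965 and 45989, and then 51510 and 49749. DNAJB1 measured 5934 and 6978, and then 9297 and 10101, so that it was higher after MS-275 in both, by 0.23 and 0.12 on the log2 scale. HSPB1 measured 16743 and 17034, and then 26858 and 27386, differences of 0.025 and 0.028. HSPE1 measured 544 and 598, and then 1224 and 1116, and its direction differed between the numbers. The 95% confidence intervals of the fit without the number reached from -1.06 to 1.11 for HSPB1 and from -1.46 to 1.47 for HSPE1 in that fit, whose spread includes the gap between the numbers.

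For HSPE1, HSPB1, DNAJB1, HSPA8 and HSPH1 the gap between numbers was wider than the gap between groups. From number 1 to number 2, HSPE1 differed by 1.17 in Control3 and 0.90 in MS-275 on the log2 scale, HSPB1 by 0.68 in both, DNAJB1 by 0.65 and 0.53, and HSPA8 by 0.57 and 0.47. HSPH1 differed by -0.91 and -1.28, HSP90AA1 by -0.55 and -0.74 and HSPD1 by -0.15 and -0.33. HSP90AB1 differed by 0.073 and 0.11, no less than its log2 fold change of -0.07 between groups. Across 15636 genes the same gap followed exon length (Spearman's rho -0.396 in Control3 and -0.381 in MS-275) and GC content (0.365 and 0.448), which is a description, since genes share a library and are not replicates. In Control2 and A485 the rho for length were 0.0626 and 0.166. Annotated exon spans 1623 bases in HSPB1, 1823 in HSPE1, 2980 in HSP90AB1, 4849 in HSPA8, 5097 in HSP90AA1, 7629 in HSPD1, 8188 in DNAJB1 and 8391 in HSPH1. The gap of DNAJB1 ran opposite to those of HSPH1 and HSPD1 at a like length, and its GC content, at 56.3%, was the higher. The fibroblast markers followed the number as well, with 4.87% and 2.39% of normalized read counts in Control3 and 4.27% and 1.84% in MS-275. The part of transcript length, or of cell state, in the gap of the members was not tested.

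**Figure D3:**
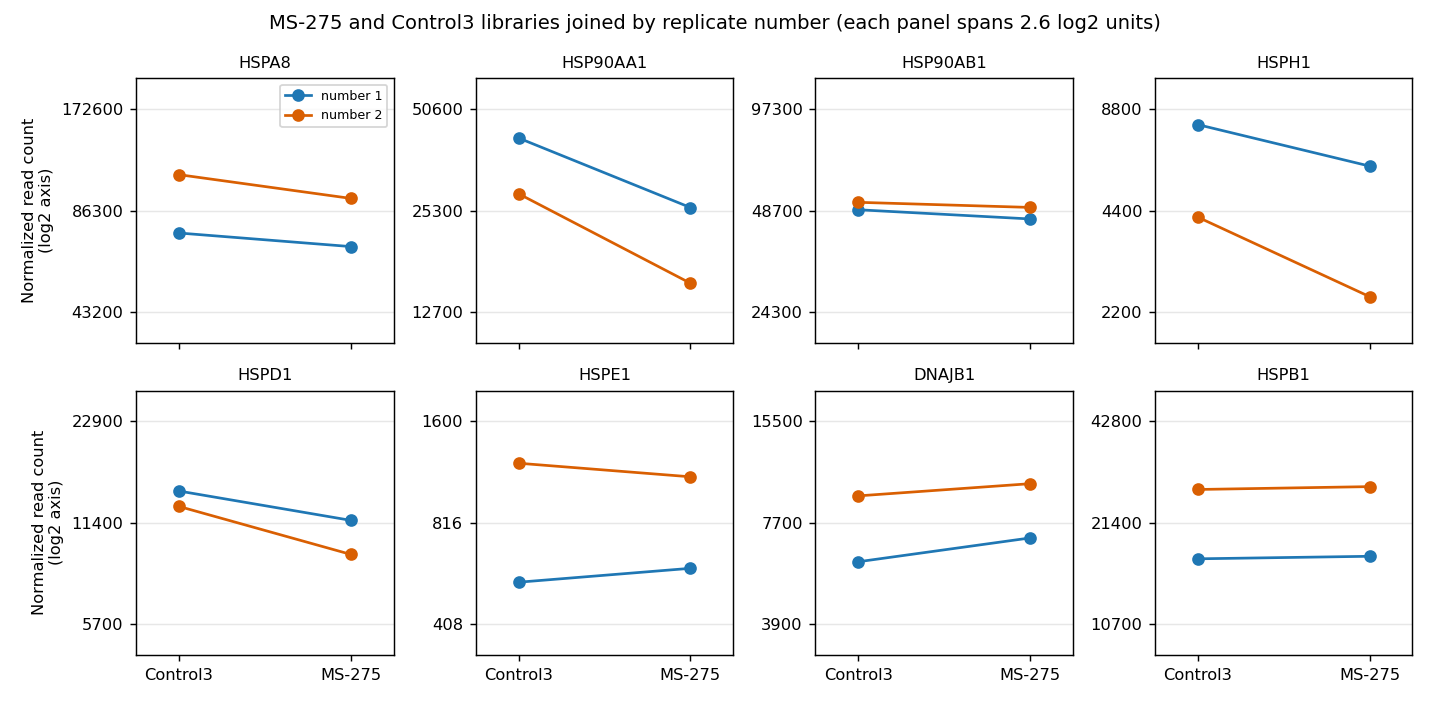
Normalized read count (log2 axis) of each chaperone in Control3 and MS-275, with lines that join libraries of the same replicate number. HSP90AA1, HSPH1 and HSPD1 slope down in both numbers, whereas HSPB1 runs flat at 2 levels, 16743 and 17034 in number 1 and 26858 and 27386 in number 2.

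In the other lists limma and edgeR called 0 genes after MS-275, and DESeq2 called 4, namely HSPA2, DNAJC6 and HSPB3 higher and HSPB6 lower, the last named after its values were seen (limma log2 fold change -2.34, adjusted p 0.351). The gene with the smallest p among HSP70 relatives was HSPA2, at 1183 and 1019 in Control3 and 5848 and 6875 in MS-275 (log2 fold change 2.53, limma adjusted p 0.162). HSPB3, a small heat shock protein of muscle, had 14 and 10 against 165 and 75 (3.12, adjusted p 0.224), and the J-domain gene DNAJC6 52 and 39 against 344 and 148 (2.30, adjusted p 0.279). All 11 endoplasmic reticulum chaperones had a log2 fold change above 0, with a median of 0.54, and PDIA4, a disulfide isomerase, measured 12222 and 11722 against 18515 and 19899 (0.68, adjusted p 0.501). BAG2 had -0.82 (adjusted p 0.501), and the mitochondrial exchange factor GRPEL2 -0.80 (adjusted p 0.502). HSP90 co-chaperones and chaperonin and prefoldin genes stayed between -0.40 and 0.41. HSF1 had 0.18 (adjusted p 0.948) and HSF2 0.15 (adjusted p 0.978).

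Pyruvate was compared with Control6 to ask how added lactate precursor alters expression in senescent IMR90 cells. HSP90AA1, HSPD1 and HSPH1 were called higher, and DNAJB1 and HSPB1 lower, while HSP90AB1 differed by 1.05-fold. Of the 8 chaperones 3 were thus called higher and 2 lower, against 31.0% called higher and 23.1% called lower among the 12013 genes tested. The median log2 fold change of the 8 was 0.58 and that of all genes -0.007. Since more than every second gene was called, the number of members called is near the background. Both edgeR and DESeq2 on recovered reads called the same 5 genes.

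HSP90AA1 measured 945 and 1018 in Control6 and 12749 and 12955 in the pyruvate libraries, far above both controls. The means were 981 ± 51.5 and 12852 ± 146, a log2 fold change of 3.71 (SE 0.069, limma adjusted p 2.47e-11) or 13.1-fold. HSPD1 measured 1443 and 1475 in Control6 and 9698 and 9650 after pyruvate, a log2 fold change of 2.73 (SE 0.064, limma adjusted p 6.88e-11) or 6.63-fold. HSPH1 measured 277 and 272 in Control6 and 1689 and 1623 after pyruvate, with 2.59 (SE 0.11, limma adjusted p 2.33e-09) or 6.01-fold. In these 3 genes the replicates of a group lay close together, and the largest gap between 2 of them was 0.11 on the log2 scale.

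DNAJB1 measured 8820 and 8568 in Control6 and 3463 and 3406 after pyruvate, a log2 fold change of -1.34 (SE 0.060, limma adjusted p 3.67e-09). HSPB1 measured 15992 and 17217 in Control6 and 7086 and 7147 after pyruvate, with -1.22 (SE 0.058, limma adjusted p 5.28e-09). Both fell in both pyruvate libraries. HSPE1 measured 177 and 244 in Control6 and 380 and 362 after pyruvate (0.83, limma adjusted p 0.00163), and HSPA8 37780 and 39747 against 48458 and 48599 (0.32, adjusted p 8.04e-05). Both passed the p threshold but not the fold minimum. HSP90AB1 measured 42090 and 42189 in Control6 and 44754 and 44028 after pyruvate, with 0.075 and a 95% confidence interval of -0.028 to 0.18 (limma adjusted p 0.159). The inducible and the constitutive cytosolic HSP90 genes thus had log2 fold changes of 3.71 and 0.075 in the same libraries.

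In this experiment the change of a gene went with its GC content. Across 11888 genes Spearman's rho between GC content and log2 fold change was -0.701, against -0.112 in the A485 and -0.016 in the MS-275 experiment. Among the members, GC content of the longest transcript was 36.9% for HSPE1, 38.6% for HSPD1, 39.6% for HSPH1, 45.2% for HSP90AA1, 45.7% for HSPA8, 48.1% for HSP90AB1, 56.3% for DNAJB1 and 64.3% for HSPB1. The members called higher therefore had lower GC content than those called lower. When each library was corrected for transcript length and GC content, HSP90AA1 remained called at 3.15 (limma adjusted p 1.8e-08). HSPD1 then stood at 0.91 (adjusted p 9.83e-07), HSPH1 at 0.78 (adjusted p 6.81e-05) and DNAJB1 at -0.63 (adjusted p 2.05e-05), all inside the fold minimum. HSPB1 moved to 0.071 (adjusted p 0.145) and HSPE1 turned to -0.58 (adjusted p 0.000626).

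**Figure D4:**
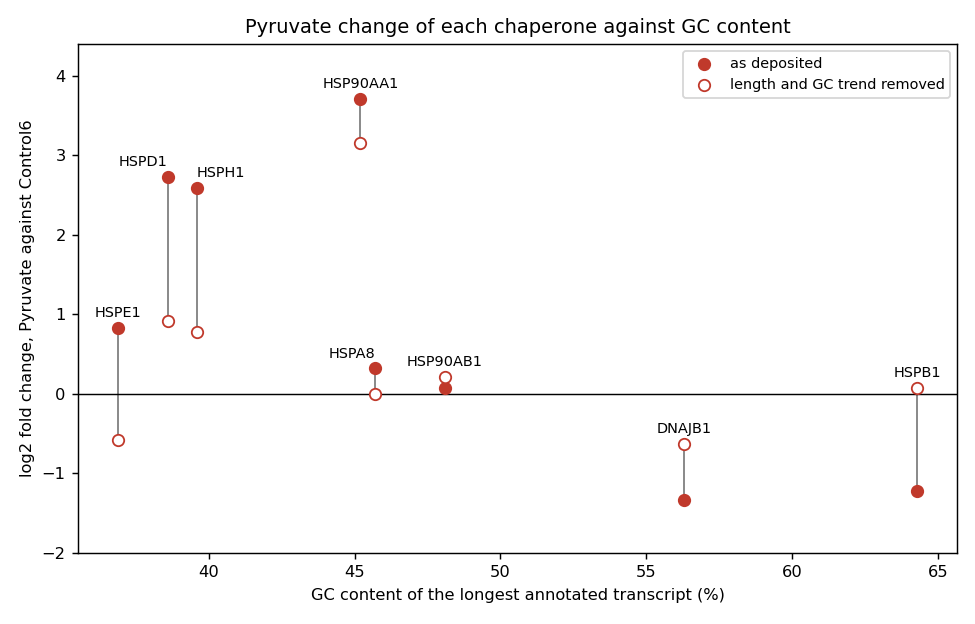
log2 fold change of each chaperone in pyruvate libraries against Control6, over the GC content of its longest annotated transcript, with filled points for the deposited values and open points after correction for transcript length and GC content. The filled points lie above 0 up to 48.1% GC and below it at 56.3% and 64.3%, and of the open points HSP90AA1 alone lies above 1, at 3.15.

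The scale of the libraries also mattered for the falls. When libraries were scaled to the same total, the median of all genes rose to 0.30 and the share of calls that were higher from 57.3% to 71.7%, HSPE1 was called higher at 1.14 (limma adjusted p 0.000151), and HSPB1 stood at -0.91 and was not called. With quantile normalization the median moved to -0.17 and HSPB1 stood at -0.90. Relative to the median of all genes HSPB1 was at -1.21 as deposited, at -1.21 with equal totals and at -0.72 with quantile normalization, and HSP90AA1 at 3.72, 3.72 and 4.05.

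Cell type markers moved in this experiment as well. The 12 fibroblast markers together held 4.82% and 4.51% of normalized read counts in Control6 and 4.66% and 4.70% after pyruvate, while PDGFRA went from 2090 and 1865 to 5911 and 5898 and THY1 from 43270 and 43956 to 12036 and 12686. The 2 listed endothelial markers moved in opposite directions. TEK went from 317.3 and 253.9 in Control6 to 1435.3 and 1402.1 after pyruvate, and VWF from 164.0 and 104.2 to 33.4 and 46.2. The mitochondrial share of values was 6.69% and 6.68% in Control6 against 4.68% and 4.72% after pyruvate. The part of the markers and of this share in the chaperone values was not tested.

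The wider chaperone lists held calls in both directions after pyruvate, to be read against 31.0% of all genes called higher and 23.1% called lower. With the length and GC trend removed, that background was 1869 higher and 1771 lower of 11888 genes. Of 13 chaperonin and prefoldin genes 7 were called higher and 0 lower, with a median log2 fold change of 1.40. CCT8, a subunit of the cytosolic chaperonin, measured 271 and 333 in Control6 and 3481 and 3413 after pyruvate (3.52, limma adjusted p 3.9e-10). With the length and GC trend removed, 5 of the 13 were called higher and 0 lower, and their median was 0.56. Of 5 HSP70 relatives 4 were called higher, led by HSPA13 with 119 and 158 against 1142 and 1141 (3.05, adjusted p 1.27e-08), and 3 with the trend removed. Of 16 J-domain co-chaperones 7 were called higher and 2 lower. DNAJA1, a major partner of cytosolic HSP70, went from 926 and 959 to 5794 and 5443 (2.57, adjusted p 2.11e-10), and DNAJC5, the cysteine string protein, from 14737 and 13871 to 3898 and 3769 (-1.90, adjusted p 3.56e-10). With the trend removed 3 of these genes were called higher and 1 lower.

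Of 13 HSP90 co-chaperones 6 were called higher and 3 lower. FKBP5, a co-chaperone of steroid receptors, rose from 88 and 97 to 717 and 693 (log2 fold change 2.92, limma adjusted p 2.45e-08), and CDC37, which brings kinases to HSP90, fell from 14372 and 14792 to 5138 and 5378 (-1.47, adjusted p 1.4e-09). With the trend removed 1 was called higher and 0 lower. Of 9 exchange factors and regulators 4 were called higher and 3 lower, among them BAG2, from 264 and 270 to 950 and 963, and STUB1, the ubiquitin ligase CHIP, from 2346 and 2400 to 492 and 599, and 0 with the trend removed. Of 11 endoplasmic reticulum chaperones 4 were called higher, led by HSP90B1, the HSP90 of that compartment, from 3022 and 3374 to 17695 and 18075 (2.49, adjusted p 1.33e-10). With the trend removed 0 were called higher and 1 lower.

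Of 11 mitochondrial chaperones and proteases 4 were called higher, with GRPEL2 from 52 and 28 to 385 and 354 (log2 fold change 3.23, limma adjusted p 1.4e-06), and CLPP, a protease subunit, was called lower, from 1671 and 1914 to 755 and 718 (-1.28, adjusted p 2.93e-07). With the trend removed 3 were called higher and 3 lower. Of 5 genes tested from the small heat shock protein list, which leaves out HSPB1, HSPB6 fell from 5821 and 5474 to 924 and 816 (-2.70, adjusted p 3.28e-10). HSPB11, listed by its symbol alone, rose from 171 and 175 to 386 and 335 (1.05, adjusted p 0.000155). Of this list 0 were called higher and 2 lower of 4 tested with the trend removed. HSPB11 was not among these 4, because the annotation used gave no GC content for it. All 3 tested genes of the heat shock factor list were called, 2 higher and 1 lower. HSF1 fell from 2573 and 2397 to 1027 and 1071 (-1.24, adjusted p 8.79e-08) and HSF2 rose from 59 and 59 to 292 and 330 (2.38, adjusted p 1.65e-06). With the length and GC trend removed they stood at -0.090 (limma adjusted p 0.293) and 0.99 (adjusted p 0.00122), and neither was called.

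Whether A485 and MS-275 acted differently on the chaperones was tested as the difference of the log2 fold changes over 8 libraries, which share no control. Of the 8 members 0 passed an adjusted p of 0.05 by limma in the fit without a replicate block, against 3.81% of 15130 genes, and 2 had an unadjusted p under 0.05. With the replicate number as a block, which no label supports as a pairing, 4401 of the 15130 genes passed and so did HSP90AA1, HSP90AB1 and HSPB1. By edgeR and DESeq2 on recovered reads 0 passed as well. HSPB1 differed by -1.38 (95% confidence interval -2.49 to -0.27, unadjusted p 0.0215, limma adjusted p 0.19), and HSP90AA1 by 1.27 (0.13 to 2.42, unadjusted p 0.0338, adjusted p 0.236). HSP90AB1 differed by -0.80, with an interval of -1.6 to 0.0063. For the other 5 the intervals spanned 0 and were wide. DNAJB1 differed by -0.18 (-1.21 to 0.85) and HSPD1 by -0.28 (-1.18 to 0.62).

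Ratios of 2 genes in the same library do not depend on its size factor, but quantile normalization and the length and GC correction can change them. With quantile normalization, DNAJB1 and HSPA8 stood at log2 fold changes of 0.25 and 0.13 after A485, against -0.00088 and -0.77 as deposited. HSP90AA1 and HSP90AB1 stood at 1.40 and -0.12, against 0.49 and -0.87. The ratios below are as deposited. The ratio of HSP90AA1 to HSP90AB1 normalized read counts was 0.582 and 0.878 in Control2 and 2.11 and 1.6 in A485. It was 0.847 and 0.551 in Control3 and 0.562 and 0.310 in MS-275, and 0.0224 and 0.0241 in Control6 and 0.285 and 0.294 after pyruvate. The A485 libraries thus lay above both of their controls and the pyruvate libraries above theirs, whereas MS-275 and Control3 overlapped across numbers. The ratio of DNAJB1 to HSPA8 was 0.0733 and 0.0976 in Control2 and 0.147 and 0.141 in A485, 0.0801 and 0.0843 in Control3 and 0.103 and 0.108 in MS-275, and 0.233 and 0.216 in Control6 and 0.0715 and 0.0701 after pyruvate. It was higher in both inhibitor groups and lower after pyruvate, with no overlap in any of the 3 experiments, and DNAJB1 has the higher GC content of the pair. The share of all gene pairs that separate in this way was not counted, and the other ratios did not do so in every experiment. The ratio of HSPD1 to HSPE1 was 8.16 and 6.04 in Control6 and 25.5 and 26.7 after pyruvate. It overlapped between Control2 (26.6 and 23.5) and A485 (24.9 and 22.5), and between Control3 (26.1 and 10.5) and MS-275 (19.4 and 8.27). The ratio of HSPH1 to HSPA8 was 0.0672 and 0.0772 in Control2 and 0.137 and 0.101 in A485. It was 0.107 and 0.0381 in Control3 and 0.0881 and 0.0261 in MS-275, which overlapped, and 0.00733 and 0.00685 in Control6 and 0.0349 and 0.0334 after pyruvate. With 2 libraries against 2 no exact permutation test of a ratio can pass 0.05, and none was run.

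**Figure D5:**
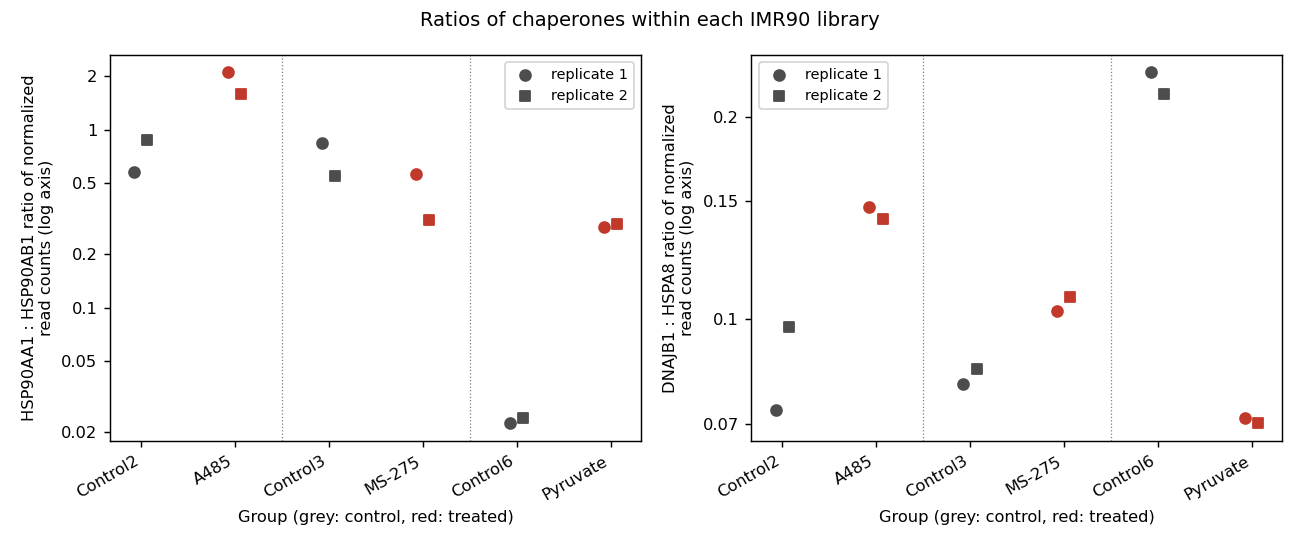
Ratio of HSP90AA1 to HSP90AB1 (left) and of DNAJB1 to HSPA8 (right) normalized read counts in each library, on log axes, with control groups in grey and treated groups in red. Control6 stands apart from all other groups on both sides, at 0.0224 and 0.0241 on the left and at 0.233 and 0.216 on the right.

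Control6 also stood apart from the other untreated groups in its share of reads. Shares are of the summed normalized read counts of the genes listed in each experiment. These were 12013 genes for Control6 and pyruvate, 16683 for Control2 and 16417 for Control3, so the sums do not cover the same genes. Per 1000000 such counts, HSP90AA1 held 31.9 and 34.6 in Control6, against 819 and 888 in Control2, 990 and 683 in Control3 and 536 and 544 in the pyruvate libraries. HSPH1 held 9.35 and 9.26 in Control6 and 101 to 188 in Control2 and Control3, and HSPD1 48.7 and 50.1 against 276 to 415. HSP90AB1, at 1421 and 1434, was not lower than the 1012 to 1408 of the other controls. The 3 experiments were normalized separately, and their batches, cell state and controls cannot be told apart, so these levels are given side by side without a test. Together the 8 chaperones made up 0.363% and 0.376% of normalized read counts in Control6, 0.540% and 0.536% after pyruvate, and 0.401% to 0.589% in the other 8 libraries.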

How the data were processed

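Bulk RNA-seq values of 12 IMR90 libraries were analysed, 2 for each of 6 groups named in the titles. The deposited values are a signal, read counts per gene that the authors divided by a size factor per library. Per the study's methods, reads were trimmed with Trim Galore (0.6.10), aligned to hg38 with HISAT2 (2.2.1) and SAMtools (1.7), counted with featureCounts (2.0.6) and normalized with DESeq2 (1.34.0). The gene annotation and strand setting are not given in the sources used here, so overlapping genes and copies may share reads. Division by the value of 1 read gave whole numbers, within 0.01, for 100% of values above 0 in each of the 12 libraries, which gives the read totals. On these reads edgeR (4.0.16) and DESeq2 (1.42.0) were run as alternatives.

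The members, lists and tests were chosen with earlier results of these data known. Values were transformed to log2(value + 1), which understates changes of low genes. Genes whose 4 libraries averaged 10 or more were tested with limma (3.58.1, eBayes with trend, no covariate) in R (4.3.3), with Benjamini-Hochberg adjustment. The named genes are the members, HSF1, HSF2 and, from each list and comparison, the strongest called rise and fall among genes whose higher group averaged 100 or more, or else the gene with the smallest p. Positions, exon lengths and GC content came from GENCODE for hg38, and promoters from RefSeq for GRCh38.p14. The limma, edgeR and DESeq2 fits of single comparisons were checked on simulated data, the test of the difference of effects was not. Alternatives covered the pseudocount, filter, scaling, trend, replicate block, fold minimum and single libraries. Other steps used Python (3.11.15), numpy (2.4.6), pandas (2.3.3), scipy (1.17.1) and matplotlib (3.10.9).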

Additional observations from a re-analysis of the deposited data

How the results depend on the processing

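With 2 libraries a group, values that lie near 0 or near a threshold are the least firm. The members called by edgeR and DESeq2 on recovered reads were those called by limma in all 3 comparisons, and 0 passed in the difference of effects. Among the member counts, quantile normalization gave 1 member called higher after A485 (HSP90AA1), and the 1 member called lower (HSPB1) became 0 with equal library totals, quantile normalization or eBayes without the trend, and 0 to 1 when single libraries were left out. After pyruvate the 3 members called higher became 5 with no fold minimum and 1 with the length and GC trend removed, with or without the block. The 2 called lower became 1 with equal totals or quantile normalization (DNAJB1) and 0 with the length and GC trend removed, with or without the block. The member counts for MS-275 stayed at 0 in all alternatives. Over all genes, A485 calls went from 532 higher and 1135 lower to 258 and 582 with eBayes without the trend, 1680 and 899 with equal totals, 14 and 215 without A485 replicate 1, 11 and 290 without A485 replicate 2, and 339 and 1053 in a fit of all 12 libraries. MS-275 calls went from 0 to 348 higher and 227 lower by DESeq2, and to between 20 and 318 higher and between 11 and 152 lower without single libraries. Pyruvate calls went from 3726 and 2777 to 1869 and 1771 with the length and GC trend removed, 4402 and 1741 with equal totals and 4881 and 4832 with no fold minimum. In the difference of effects 576 genes passed, and 1006 with the trend removed, 4401 with the replicate block, 1417 by DESeq2 and 138 to 421 without single libraries.

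Replicate numbers are shared between groups, but no label says that they pair libraries. The deviations of same-numbered libraries correlated across genes at 0.316 in the A485, 0.728 in the MS-275 and 0.002 in the pyruvate experiment. With the replicate number as a block, 1 member was called lower after A485, 0 after MS-275, and 3 higher and 2 lower after pyruvate, while over all genes MS-275 calls went from 0 to 1230 higher and 953 lower and A485 calls from 532 and 1135 to 870 and 1616. With the block HSP90AA1 (-0.78, limma adjusted p 1.79e-05), HSPH1 (-0.59, adjusted p 0.000574) and HSPD1 (-0.38, adjusted p 0.0081) passed the p threshold after MS-275 but not the fold minimum, and 2 HSP70 relatives, 1 J-domain gene and 2 small heat shock proteins were called higher and 1 J-domain gene and 2 small proteins lower. The block let 3 members pass in the difference of effects (HSP90AA1, HSP90AB1 and HSPB1), and also 3 with the length and GC trend removed (HSP90AA1, HSPB1 and HSPE1). A fit shared by all 12 libraries called 221 genes higher and 267 lower after MS-275, 0 members, 1 HSP70 relative higher and 1 small heat shock protein higher.

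Some values changed sign, and none of them was called with the opposite sign. After A485, HSPA8 was at 0.13 with quantile normalization, HSPH1 at 0.34 with equal totals and 0.15 with quantile normalization, and HSF1 at 0.057 with equal totals. DNAJB1 was at 0.39 with equal totals, 0.25 with quantile normalization, 0.020 with TMM factors, 0.15 with the length and GC trend removed (also with the block), 0.023 by edgeR and 0.00036 by DESeq2. After MS-275, HSPE1 was at -0.14 with equal totals, -0.0085 with TMM factors, -0.060 by edgeR, -0.042 by DESeq2 and -0.044 with the trend removed (also with the block), and HSPB1 at -0.12, at -0.16 with quantile normalization and at -0.036 with the trend removed. After pyruvate with the trend removed, with or without the block, HSPA8 was at -0.00077, HSPE1 at -0.58, HSPB1 at 0.071 and BAG2 at -0.068. In the difference of effects, quantile normalization gave HSPA8 0.69, HSP90AB1 0.21, HSPD1 0.29 and DNAJB1 0.17, and equal totals HSPD1 0.25 and DNAJB1 0.36. Leaving out single libraries gave ranges across 0 for HSPH1 (-0.15 to 0.036) and DNAJB1 (-0.10 to 0.10) after A485, and for HSPA8 (-0.47 to 0.10), HSPH1 (-1.24 to 0.048), HSPE1 (-0.58 to 0.59), DNAJB1 (-0.15 to 0.50), HSPB1 (-0.32 to 0.37), HSBP1 (-0.068 to 0.74) and HSF2 (-0.12 to 0.41) after MS-275. In the difference they did so for HSPH1 (-0.10 to 1.18), HSPE1 (-1.17 to 0.0028) and DNAJB1 (-0.50 to 0.15). The cause of these changes was not tested.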
